A study of Mus musculus with 6 samples.

Results

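The genes described here are 31 genes chosen as markers of microglia and macrophages, the resident phagocytes of the brain. Members were every probe set, a group of short probes read out as 1 value, that the platform annotation gave to exactly 1 of these genes. This gave 44 of the 45037 probe sets that are not controls, and every one of the 31 genes had at least 1. Whole-brain RNA came from 3 heterozygous periphilin knockout mice and from 3 C57BL/6 wild-type littermates. All 6 mice were male and 2 months old, and each brain was hybridised to an Affymetrix array of its own. The heterozygous mice carry 1 disrupted copy of Pphln1, whose product periphilin belongs to a chromatin silencing complex. The labels do not describe the disruption, and they name no other allele or treatment in either group.

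Microglia enter the brain early in development and depend on the receptor Csf1r for survival. In the healthy brain they survey their surroundings with purinergic and chemokine receptors such as P2ry12 and Cx3cr1, and this state is called homeostatic. In injury or ageing they turn down such genes and raise those of phagocytosis, lysosomes and innate sensing, among them Trem2, Tyrobp, Cd68 and Cd14. A further population, the border macrophages of vessels and meninges, carries Mrc1 and Cd163. The comparison asked whether either programme differs between brains with 1 and with 2 intact copies of Pphln1. In whole-brain RNA, fewer microglia and less RNA per microglial cell cannot be told apart. The part of other brain cells in the signal of each gene was not measured.

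Array medians lay between 31.2 and 34.5 intensity units, and the number of arrays limits the precision. The tissue label was borne out by neuronal Snap25, which measured 7406 to 8874 on the 6 arrays. Pphln1 itself, at 1434822_at, measured 353, 269 and 338 in heterozygous and 295, 290 and 314 in wild-type brains. At its dimmer probe set 1435766_at it measured 30.6, 44.4 and 36.6 against 63.2, 47.3 and 46.3, and neither probe set passed the test (limma adjusted p = 0.969 and 0.956). Since the site of the disruption is unknown here, these values do not test the genotype. The ratio of 3' to 5' signal of the Gapdh controls, a measure of RNA integrity, was 0.747 to 0.755 in heterozygous and 0.713 to 0.731 in wild-type brains. That of the Actb controls overlapped, at 1.72, 1.62 and 1.60 against 1.70, 1.66 and 1.64. Their part in the results was not tested.

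None of the 39 tested probe sets, from 30 of the 31 genes, was called between genotypes at a limma adjusted p below 0.05. The smallest limma adjusted p was 0.956. Across all probe sets, 4 of 27022 were called, which is 0.0148%. A dim limit of 18.4 intensity units left 30 of the genes with a tested probe set, and Cd163 fell under it. Taking each gene at its brightest tested probe set, 15 were higher and 15 lower in heterozygous brains in sign. Of all genes tested, 52.0% were higher in sign. The mean log2 difference over the 30 genes was -0.03, against 0.0048 over all 13024 genes tested. An unadjusted limma p below 0.05 was found for 2 of the 30 genes, Mrc1 and Lyz2, and for 4.38% of all genes. Differences are heterozygous minus wild type on the scale log2(intensity + 16), which understates the change of dim genes.

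The 95% intervals give the range of differences left by these arrays, as ratios of intensity + 16. On that scale the interval of 21 of the 30 genes lay within a ratio of 1.5 in either direction, and that of all 30 within a ratio of 2. These are not bounds on the fold of intensity itself, which can be larger for dim genes. The narrowest belonged to Ctsd, the lysosomal protease cathepsin D, at a ratio of 0.89 to 1.14. The widest belonged to the dim Trem2, a lipid-sensing receptor, at 0.75 to 1.85, and its log2 difference of 0.24 became 0.43 with a pseudocount of 1.

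**Figure D1:**
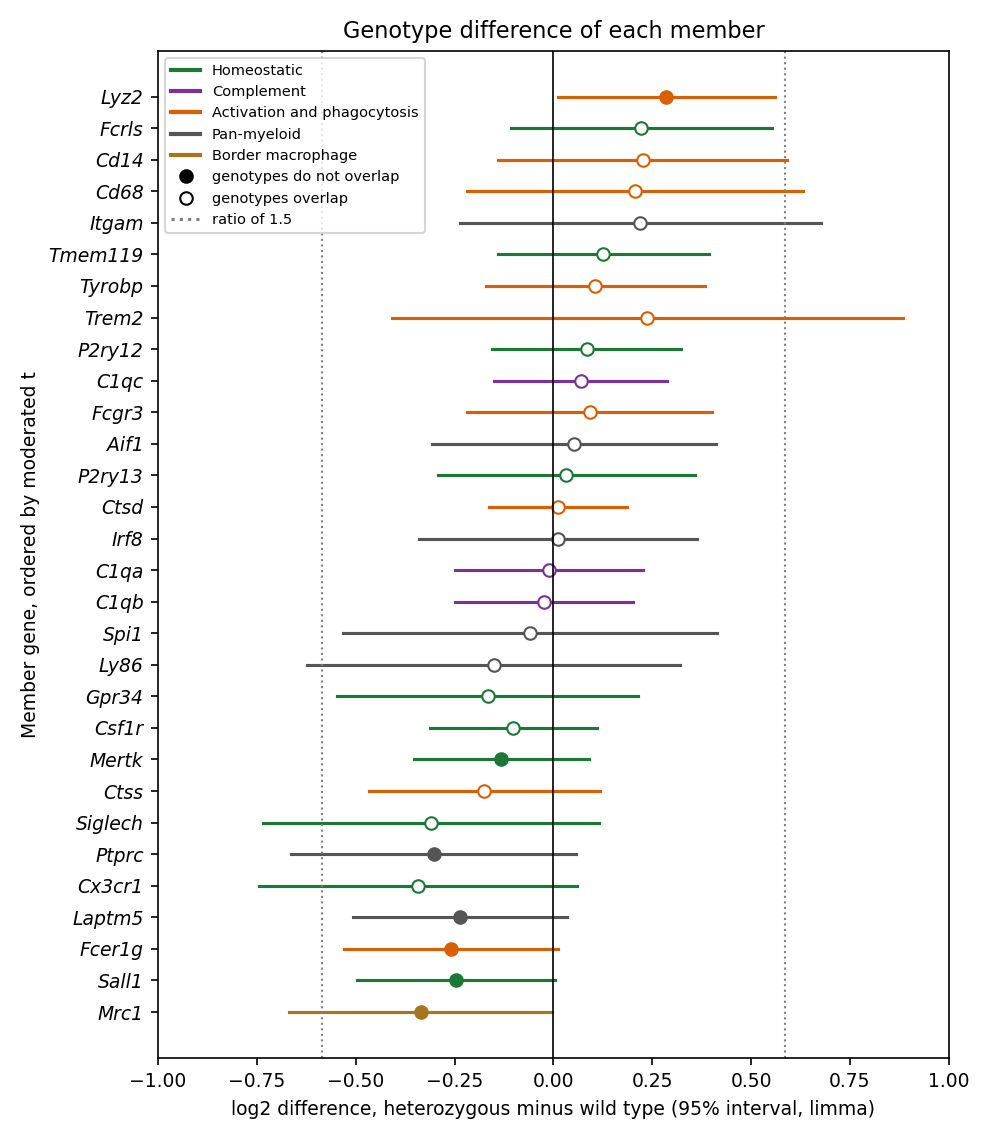
Log2 difference (heterozygous minus wild type, horizontal axis) of each of the 30 tested genes with its 95% interval from limma, ordered by moderated t and coloured by role. Filled points mark genes whose genotypes did not overlap, and the dotted lines mark a ratio of 1.5 on the intensity + 16 scale. Lyz2 and Mrc1 stand at the ends, with intervals that narrowly leave out 0, and no gene passed the adjusted threshold.

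Of the 10 homeostatic genes, 4 were higher and 6 lower in sign, none was called, and the median log2 difference was -0.12 against 0.0068 over all genes. Sall1, a transcription factor that maintains microglial identity, measured 121, 128 and 132 in heterozygous brains. In wild-type brains it measured 166, 149 and 146, so that every heterozygous value lay below every wild-type value. The means were 127 ± 5.71 and 154 ± 10.9 (SD, n = 3 each). Its log2 difference was -0.25 (SE 0.11, limma adjusted p = 0.956), and at the dimmer probe set 1450489_at it was -0.28 (SE 0.20), with overlapping values.

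Mertk, a receptor tyrosine kinase that recognises dying cells, measured 166, 172 and 166 in heterozygous and 185, 183 and 189 in wild-type brains. The spread within each genotype was small, with means of 168 ± 3.19 (SD, n = 3) and 186 ± 2.91 (n = 3), and the genotypes did not overlap. The log2 difference was -0.13 (SE 0.10, limma adjusted p = 0.956), with the SE from a fit that draws each spread towards that of probe sets of like intensity.

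Cx3cr1, the fractalkine receptor, had the largest difference among the 30 genes in size, at -0.34 (SE 0.18, limma adjusted p = 0.956). It measured 75.8, 110 and 115 in heterozygous and 100, 139 and 156 in wild-type brains. Heterozygous 1 and wild type 1 were lowest in their genotypes, and the genotypes overlapped. The title of heterozygous 1 carries no number, so the labels do not pair it with wild type 1. Its dimmer probe set 1450019_at lay at -0.06 (SE 0.17). Siglech, a sialic acid-binding lectin, measured 67.5, 53.6 and 33.6 against 65.1, 69.4 and 63.2. Heterozygous 3 was low and heterozygous 1 lay within the wild-type range, for a log2 difference of -0.31 (SE 0.19).

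The 3 probe sets of Csf1r lay at -0.10 each (SE 0.10, 0.11 and 0.18). At the brightest it measured 1185, 1131 and 1009 in heterozygous and 1085, 1187 and 1301 in wild-type brains, so the ranges crossed. Gpr34, a receptor for lysophosphatidylserine, lay at -0.17 (SE 0.17). Fcrls, an Fc receptor-like gene of mouse microglia, was highest of the homeostatic genes, at 0.22 (SE 0.15). It measured 102, 144 and 120 against 88.5, 116 and 101, and the second brain was highest in both genotypes. The microglial membrane protein gene Tmem119 lay at 0.13 (SE 0.12), and the purinergic receptor genes P2ry12 and P2ry13 at 0.08 (SE 0.11) and 0.03 (SE 0.15).

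The complement genes C1qa, C1qb and C1qc encode the chains of C1q, which starts the classical complement pathway and tags synapses for removal. They are neighbours on chromosome 4 and are made in the brain almost wholly by microglia. C1qa measured 362, 348 and 333 in heterozygous and 378, 301 and 378 in wild-type brains, and C1qb 361, 384 and 340 against 388, 326 and 391. For both genes wild type 2 was the lowest array. C1qc measured 240, 260 and 232 against 226, 244 and 225, and wild type 2 was not low there. The log2 differences were -0.01 (SE 0.11), -0.02 (SE 0.10) and 0.07 (SE 0.10). On the intensity + 16 scale the intervals left ratios of 0.84 to 1.17 for C1qa, 0.84 to 1.15 for C1qb and 0.90 to 1.22 for C1qc. The other probe sets of C1qb, 1434366_x_at and 1437726_x_at, lay at 0.00022 and -0.13 (SE 0.11 and 0.12). Names ending in x_at mark probe sets that can also match other transcripts.

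Many microglial genes are switched on by PU.1, the product of Spi1, which binds a core of the letters GAGGAA. The promoters of the neighbouring C1qb and C1qc are shown with those of the genes at both ends of the ranking, Mrc1 and Lyz2. Each sequence is the 250 bases before the annotated gene start, from RefSeq on GRCm38.p6, and capitals mark the core on either strand, where TTCCTC is its reverse complement. The windows are chr4:136886201-136886450 for C1qb and chr4:136892915-136893164 for C1qc, both on the minus strand. Those of Mrc1 and Lyz2 are chr2:14229164-14229413 on the plus strand and chr10:117282273-117282522 on the minus strand.
C1qb: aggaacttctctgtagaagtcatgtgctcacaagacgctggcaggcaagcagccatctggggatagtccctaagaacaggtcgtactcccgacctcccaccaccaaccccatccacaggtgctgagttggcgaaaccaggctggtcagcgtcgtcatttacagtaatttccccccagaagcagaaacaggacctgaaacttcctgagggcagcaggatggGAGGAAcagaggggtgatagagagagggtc
C1qc: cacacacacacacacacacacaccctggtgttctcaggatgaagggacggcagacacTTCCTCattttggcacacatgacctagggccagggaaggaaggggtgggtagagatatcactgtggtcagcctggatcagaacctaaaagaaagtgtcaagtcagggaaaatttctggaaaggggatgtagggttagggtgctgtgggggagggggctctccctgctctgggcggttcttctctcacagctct
Mrc1: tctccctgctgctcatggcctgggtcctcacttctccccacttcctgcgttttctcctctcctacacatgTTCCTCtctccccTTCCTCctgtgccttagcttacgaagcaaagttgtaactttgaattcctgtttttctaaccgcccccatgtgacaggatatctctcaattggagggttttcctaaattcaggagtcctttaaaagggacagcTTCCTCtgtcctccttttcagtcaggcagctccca
Lyz2: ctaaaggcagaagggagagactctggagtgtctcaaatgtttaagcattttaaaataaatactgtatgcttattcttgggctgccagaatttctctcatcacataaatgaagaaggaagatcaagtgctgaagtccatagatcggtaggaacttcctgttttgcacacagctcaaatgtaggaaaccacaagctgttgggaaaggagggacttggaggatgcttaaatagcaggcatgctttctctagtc

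C1qb and C1qc hold 1 match each, at 24 and 187 bases from the start, and Mrc1 holds 3. These letters are not in the window of Lyz2. Promoter windows were at hand for 24 of the 31 genes. Of the 24, 13 (54.2%) hold the core in at least 1 window, against 25.9% of 27025 genes. Counted by window, 14 of 29 (48.3%) hold it, against 23.3% of all 32851 windows. Windows of 1 gene can overlap and count the same match again, as for Fcgr3. A match is a description of the letters and not a binding site. Spi1 itself measured 38.6, 37.4 and 19.5 in heterozygous and 25.7, 40.2 and 33.8 in wild-type brains. Its log2 difference was -0.06 (SE 0.21), and heterozygous 3 was the lowest array.

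Of the 9 genes of activation, phagocytosis and lysosomes, 7 were higher and 2 lower in sign, where 52.0% of all genes were higher. None was called, and the median log2 difference was 0.11. With the replicate block on the arrays numbered II and III, which rests on those 4 arrays, 4 were higher and 5 lower, as Trem2, Cd68 and Fcgr3 turned to -0.15, -0.0936 and -0.0191. Lyz2, the lysozyme of macrophages and neutrophils, measured 127, 129 and 134 in heterozygous brains. In wild-type brains it measured 101, 118 and 93.9, so that it was the 1 gene of the 30 with every heterozygous value above every wild-type value. The means were 130.0 ± 3.58 and 104 ± 12.4 (SD, n = 3 each). Its log2 difference was 0.29 (SE 0.12, limma adjusted p = 0.956), with an interval of 0.01 to 0.56.

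Fcer1g, the gamma chain through which Fc receptors signal, went the other way. It measured 92.5, 94.2 and 101 in heterozygous and 114, 111 and 129 in wild-type brains, with no overlap, with means of 95.9 ± 4.42 and 118 ± 9.65 (SD, n = 3 each) and -0.26 between genotypes on the log2 scale (SE 0.12; limma adjusted p = 0.956). Tyrobp, the related adaptor that carries signals from Trem2, measured 264, 278 and 242 against 230, 291 and 210. The wild-type range enclosed the heterozygous one, and the log2 difference was 0.11 (SE 0.13). Fcgr3, a receptor that pairs with the gamma chain, lay at 0.09 (SE 0.14).

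Trem2 was dim, at 37.6, 40.5 and 21.8 in heterozygous and 10.4, 26.2 and 46.7 in wild-type brains. The spread within the wild type was larger than the difference between genotypes of 0.24 (SE 0.29). Its other probe set measured at most 15.4 on any array and was not tested. Cd68, a lysosomal membrane protein of phagocytes, measured 94.6, 57.7 and 77.0 against 47.2, 69.9 and 74.8, a log2 difference of 0.21 (SE 0.19). Cd14, the co-receptor for bacterial lipopolysaccharide, measured 66.1, 53.1 and 45.8 against 45.8, 48.1 and 39.3, at 0.23 (SE 0.17). For both genes heterozygous 1 was highest and the genotypes overlapped. Of the lysosomal proteases, Ctss lay at -0.17 (SE 0.13) and Ctsd at 0.01 (SE 0.08).

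Of the 7 genes shared by myeloid cells, 3 were higher and 4 lower in sign, with a median of -0.06 and no call. Ptprc, the receptor tyrosine phosphatase found on all leukocytes, measured 45.8, 41.9 and 31.8 in heterozygous and 49.8, 51.2 and 56.6 in wild-type brains. The genotypes did not overlap, with means of 39.8 ± 7.26 and 52.5 ± 3.59 (SD, n = 3 each). The log2 difference was -0.30 (SE 0.16, limma adjusted p = 0.956). The other probe set of Ptprc measured at most 12.1 on any array, with overlap, and was not tested. Laptm5, a lysosomal protein of blood cells and microglia, measured 123, 144 and 113 against 161, 146 and 148 at 1436905_x_at. Heterozygous 2 came within a few units of wild type 2 without crossing it. The means were 127 ± 15.7 and 152 ± 8.31 (SD, n = 3 each) and the log2 difference -0.24 (SE 0.12, limma adjusted p = 0.956). The other tested probe sets of Laptm5 lay at 0.02, -0.10 and 0.02, all with overlapping genotypes.

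Ly86, a secreted partner of an innate immune receptor, varied widely within both genotypes. It measured 129, 234 and 170 in heterozygous and 142, 248 and 204 in wild-type brains. The second brain was highest and the first lowest in both genotypes, and the log2 difference was -0.15 (SE 0.21). Itgam, an integrin subunit of myeloid cells, lay at 0.22 (SE 0.21), with heterozygous 3 highest at 45.0. Aif1, a calcium-binding protein widely stained to find microglia, lay at 0.05 (SE 0.16). The transcription factor gene Irf8 lay at 0.01 (SE 0.16) by 1416714_at. Its dim probe set 1448452_at measured 39.5, 29.3 and 16.9 against 19.8, 13.1 and 2.08, with overlap, and was not tested.

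The border macrophage genes Mrc1 and Cd163 were both lower in sign. Mrc1, the mannose receptor at 1450430_at, measured 42.7, 42.0 and 48.9 in heterozygous and 55.4, 67.5 and 58.6 in wild-type brains. Every heterozygous value lay below every wild-type value, and the means were 44.5 ± 3.82 and 60.5 ± 6.28 (SD, n = 3 each). The log2 difference was -0.34 (SE 0.15, limma adjusted p = 0.956), with an upper interval limit just below 0. Cd163, a scavenger receptor for haemoglobin, measured 22.5, 8.04 and 8.03 against 23.8, 23.1 and 24.2. The ranges did not overlap there either, but heterozygous 1 was close to the wild type and the mean lay below the dim limit. Of 6 other tested genes of border macrophages and monocytes, 4 were higher and 2 lower in sign, none was called, and the groups overlapped for all 6. Pf4 and F13a1 lay at -0.14 (SE 0.16) and -0.10 (SE 0.21), Stab1 at 0.28 (SE 0.21) and Cbr2 at 0.03 (SE 0.22).

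Counted together, the genotypes did not overlap for 7 of the 30 genes, against 10.1% of all genes at their brightest probe set. Lyz2 was the 1 gene above, against 5.19% of all genes. The 6 below were Mrc1, Sall1, Fcer1g, Laptm5, Ptprc and Mertk, against 4.95%. They were drawn from all roles except complement, and their log2 differences ran from -0.34 to -0.13. Laptm5 was counted by 1436905_x_at, a name of the kind that can also match other transcripts. The genotypes overlapped at its other tested probe sets. The shares were not tested, since the list was proposed with earlier results in view.

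**Figure D2:**
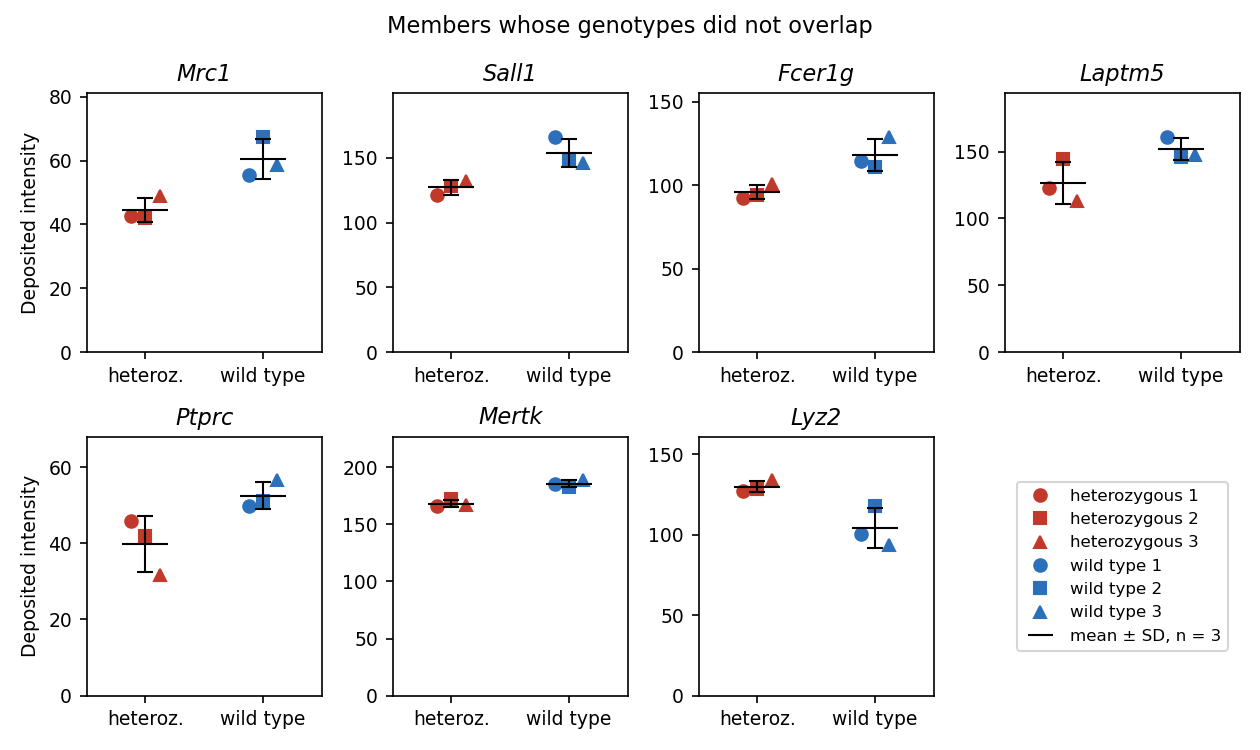
Deposited intensity (vertical axis, from 0) of the 7 genes whose genotypes did not overlap, 1 point per brain, with the mean and SD of 3 brains. Mrc1, Sall1, Fcer1g, Laptm5, Ptprc and Mertk were lower in each heterozygous brain, Lyz2 was higher, and the gap was narrow for Laptm5 (144 against 146).

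To compare the genes listed as homeostatic with those listed as activation, each gene was set to its own mean over the 6 arrays. The log2 deviations from that mean were averaged on each array. The state of the cells themselves was not measured. Over all 30 genes the level was 0.01, 0.03 and -0.08 in heterozygous and -0.06, 0.04 and 0.06 in wild-type brains. Heterozygous 3 and wild type 1 were the low arrays, and the groups overlapped. On heterozygous 1 and heterozygous 2, 18 and 17 of the 30 genes lay above their own mean, against 52.6% and 51.7% of all genes. On heterozygous 3, 8 of the 30 genes lay above their own mean, where 49.6% of all genes did. On wild type 1 the number was 13 of 30, against 52.6%, and on wild type 2 and wild type 3 it was 20 each, against 48.0% and 49.2%.

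The homeostatic level was -0.05, 0.06 and -0.13 in heterozygous and -0.03, 0.09 and 0.06 in wild-type brains, a difference of -0.08. The activation level was 0.14, 0.03 and -0.04 against -0.17, 0.00 and 0.05, a difference of 0.08. Both pairs of ranges overlapped. Homeostatic minus activation came to -0.19, 0.03 and -0.09 in heterozygous and 0.15, 0.09 and 0.01 in wild-type brains. Heterozygous 2 lay within the wild-type range, and the group means were -0.08 ± 0.11 (SD, n = 3) and 0.08 ± 0.07 (n = 3). These levels are descriptions without a test. The activation difference turned to -0.0331 with the replicate block on II and III. It was 0.02 without wild type 1 and 0.03 without heterozygous 1, but 0.12 without heterozygous 3 and 0.13 without wild type 3. The homeostatic difference was -0.04 without heterozygous 3 and -0.13 without heterozygous 2. Without heterozygous 3 the level over all 30 genes changed sign, from -0.03 to 0.0053, and it came to -0.07 without wild type 1, -0.05 without heterozygous 2, -0.02 without wild type 2 and -0.0041 without wild type 3.

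**Figure D3:**
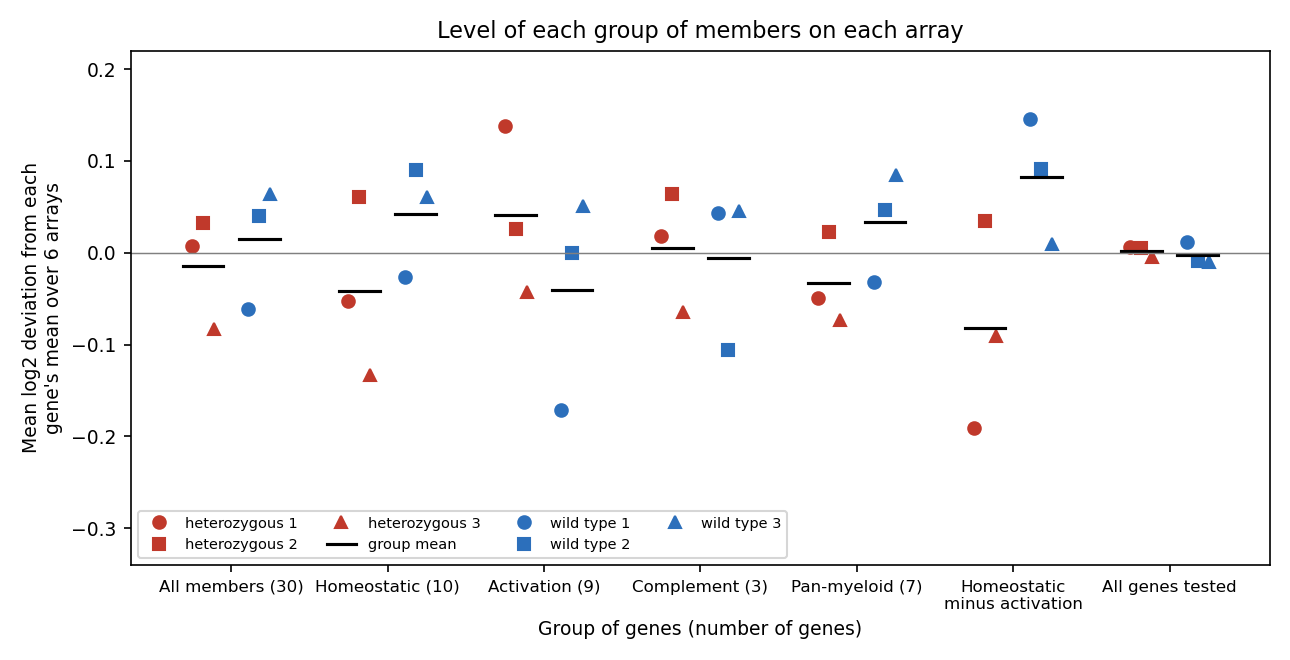
Mean log2 deviation from each gene's own mean over 6 arrays (vertical axis) for each group of genes, 1 point per array, with bars at the group means. The genotypes overlapped for every group drawn, homeostatic minus activation included, where heterozygous 2 (0.03) lay between wild type 3 (0.01) and wild type 2 (0.09).

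**Figure D4:**
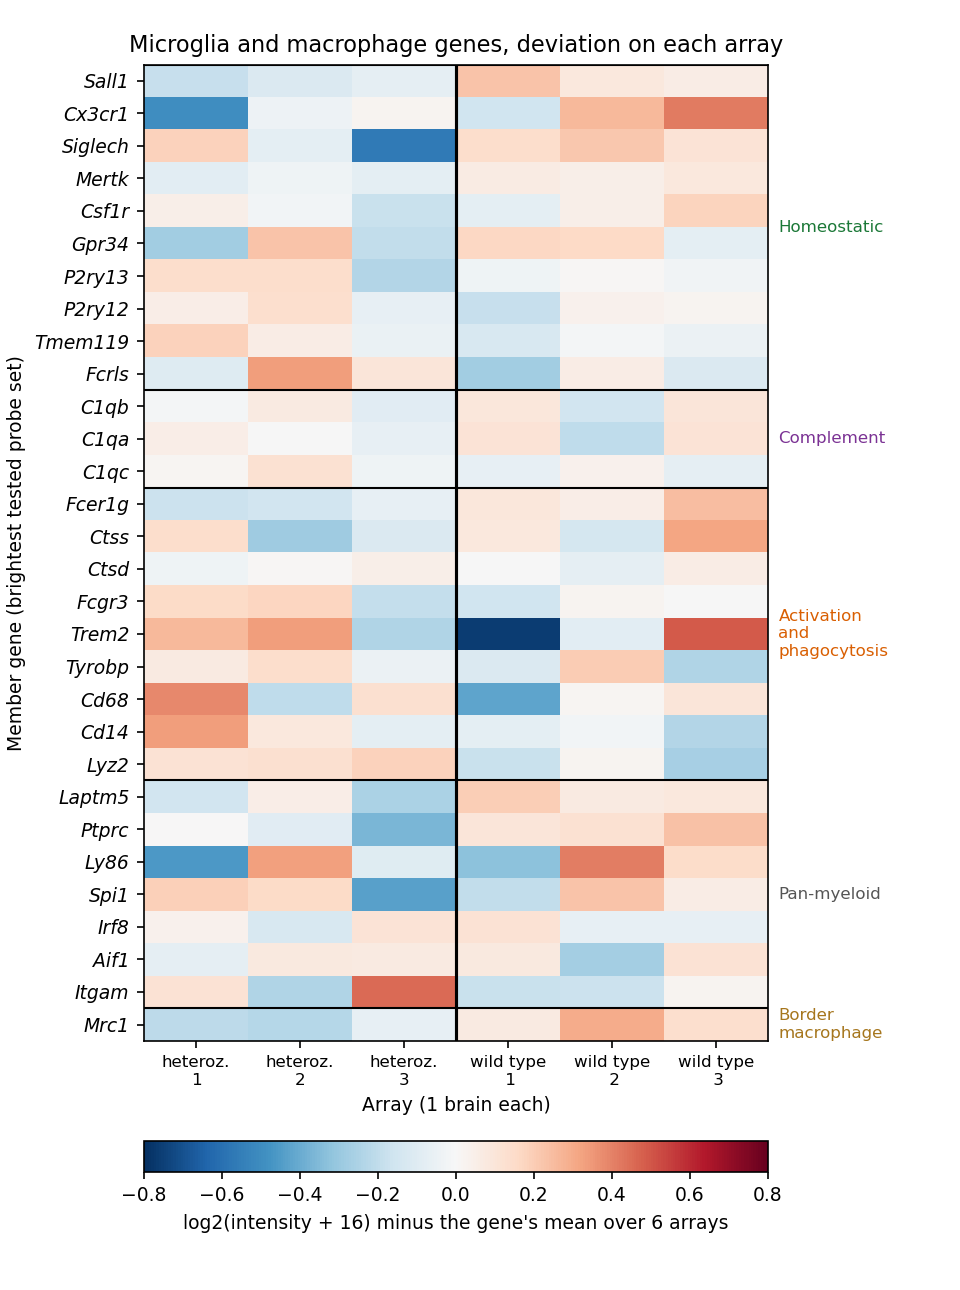
Log2 deviation of each of the 30 genes (rows, by role and then by moderated t) from its own mean over the 6 arrays (columns), with red above and blue below that mean. Mertk, Sall1, Fcer1g and Mrc1 are blue on all heterozygous arrays, Lyz2 is red on all of them, and wild type 1 has the lowest Trem2.

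Further genes of the same biology were read from lists that exclude the 31. Of 16 tested homeostatic genes, 8 were higher and 8 lower in sign, with a median of 0.01 and no call. Highest by moderated t were Ltc4s, a leukotriene synthase, at 0.45 (SE 0.19) and Entpd1, an ectonucleotidase, at 0.16 (SE 0.15). Lowest were the integrin gene Itgb2 at -0.27 (SE 0.17) and the purinergic receptor gene P2ry6 at -0.33 (SE 0.26). The genotypes did not overlap for 2 genes above, Ltc4s and Entpd1, and 1 below, Itgb2, against 5.19% and 4.95% of all genes. Ltc4s was the 1 gene of the 16 with an unadjusted limma p below 0.05. Of 16 genes of leukocyte signalling, 6 were higher and 10 lower in sign. They ran from Cyba, an oxidase subunit, at 0.28 (SE 0.14) and Inpp5d at 0.23 (SE 0.16) to Plcg2 at -0.19 (SE 0.15) and Lcp1, an actin-bundling protein, at -0.30 (SE 0.15). The genotypes did not overlap for 1 gene above, Cyba, and 2 below, Plcg2 and Lcp1, against 5.19% and 4.95% of all genes. Of these 16 genes, 0 were called and 0 had an unadjusted limma p below 0.05.

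Genes raised by microglia in disease models gave the same count of calls, 0 of 15 by limma, with 1 at an unadjusted p below 0.05. In sign 6 were higher and 9 lower, with a median of -0.06. The genotypes did not overlap for 2 genes above, Cd9 and Ank, and 0 below, against 5.19% and 4.95% of all genes. Axl, a kinase related to Mertk, measured 196, 143 and 171 in heterozygous and 135, 112 and 151 in wild-type brains, which is 0.32 higher on the log2 scale (SE 0.14, limma adjusted p = 0.956), with overlap. Cd9 lay at 0.16 (SE 0.10), B2m at -0.20 (SE 0.11) and Lpl, a lipase, at -0.28 (SE 0.14). Cst7, Itgax and Clec7a, which mark that state, were at or below the dim limit.

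Of 16 inflammatory genes, 7 were bright enough to test and none was called. They ran from Cxcl10 at 0.15 (SE 0.19) and Nfkbia at 0.10 (SE 0.12) to Ccl4 at -0.18 (SE 0.19) and Tlr2 at -0.40 (SE 0.19). Tnf, Il6, Il1a, Ccl2, Ccl3 and Nos2 were dim. Tlr2, a sensor of bacterial lipoproteins, measured 15.1, 20.1 and 11.4 against 25.0, 28.4 and 23.2, close to the dim limit and without overlap. It was the 1 gene of these 7 without overlap, against 10.1% of all genes. Of 10 genes for ligands and signals to microglia, 7 were higher and 3 lower in sign. Gas6, a ligand of Mertk and Axl, lay at 0.17 (SE 0.10) and Il34, a ligand of Csf1r, at 0.20 (SE 0.16). The other Csf1r ligand, Csf1, lay at -0.14 (SE 0.14), and Tgfb1 at -0.20 (SE 0.16).

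Markers of other cells were read in the same way, and none was called. Of 11 neutrophil and lymphocyte genes on the array, 4 were bright enough to test, and Cd3e, Cd3d, Cd4, Cd79a and Cd79b were dim. The mean deviation of these 4 was -0.28, 0.20 and 0.18 in heterozygous and 0.03, 0.19 and -0.33 in wild-type brains. S100a8, a neutrophil protein, ran from 16.4 to 87.6 with overlap, at 0.23 (SE 0.37), Ngp lay at 0.14 (SE 0.18), S100a9 at 0.09 (SE 0.30) and Cd8a at -0.19 (SE 0.21). Lyz2 is also made by neutrophils, and their part in its difference was not tested. Of the erythroid genes Bpgm lay at 0.07 (SE 0.09) and Alas2 at -0.09 (SE 0.26).

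Among other glia, astrocyte markers had 3 of 8 higher in sign, from Aldoc at 0.16 (SE 0.09) and Aqp4 at 0.05 (SE 0.13) to Slc1a3 at -0.27 (SE 0.12) and Gfap at -0.40 (SE 0.20). Myelin genes had 3 of 7 higher, from Mbp at 0.10 and Mog at 0.06 to Cldn11 at -0.21 and Ermn at -0.26. Endothelial genes had 4 of 7 higher, with Kdr at 0.33, Tek at 0.09, Itm2a at -0.11 and Flt1 at -0.24. Neuronal genes had 7 of 8 higher, against 52.0% of all genes, with Stmn2 at 0.12, Map2 at 0.09, Rbfox3 at 0.0055 and Nefm at -0.04. The median log2 differences of these lists lay between -0.03 in astrocytes and 0.06 in neurons. The genotypes overlapped for every tested astrocyte, myelin and neuronal gene. Of the 7 endothelial genes they did not overlap for 1, Itm2a, which was lower, against 10.1% of all genes. An unadjusted limma p below 0.05 was found for 1 of 8 astrocyte genes, Slc1a3, and 1 of 7 myelin genes, Ermn, against 4.38% of all genes.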

How the data were processed

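Whole-brain cRNA of 6 mice was measured. Each array has 1 deposited linear intensity per probe set. The program that made it went unnamed, being not given in the sources used here. Leaving out the extremes, the central 96% of values averaged 150.0 on every array, and no further scaling was applied. Of 45101 probe sets, 64 controls were set apart, 34945 had 1 gene, 932 had several and 9160 are not named here. Names were updated through Entrez identifiers for 34741 probe sets with a RefSeq table of GRCm38.p6.

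Intensities were taken as log2(intensity + 16). Probe sets with a mean at or below the 40th percentile (18015) were removed as dim, and 27022 were fitted in limma 3.58.1 under R 4.3.3 by lmFit, without covariates, and then eBayes with its intensity trend. Its two-sided p-values were adjusted by Benjamini-Hochberg across all 27022, at a threshold of 0.05. The limma fit, and no other step, was tested on simulated data. The brightest tested probe set stood for a gene. All 31 genes were accounted for. Array values were given for those without overlap and for the 3 highest and 3 lowest by moderated t, and others were added after their values were seen. Of each other list the 2 highest and 2 lowest are named. The genes and lists were chosen with earlier results of these data known. Alternatives were other normalizations, pseudocounts, dim filters and eBayes settings, other summaries of the gene groups, single arrays left out and a replicate block.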

Additional observations from a re-analysis of the deposited data

How the results depend on the processing

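No probe set of the 31 genes was called under any of the 16 other fits. The genotypes did not overlap for 1 gene above and 6 below also under quantile normalization and median centring. Over all probe sets, 4 calls became 1 without the intensity trend, 1 without the dim filter and 1 to 14 with single arrays left out. Only the numbers II and III are in the labels of both genotypes. Across probe sets, deviations of the arrays numbered II correlated at 0.20 and those numbered III at -0.02. Pairs of unlike number ran from -0.156 to 0.085, and heterozygous 1 with wild type 1 came to 0.082. With the replicate block on II and III 44 probe sets were called and the activation difference was -0.0331. With the first titles as a further pair, chosen after seeing the data, 5 were called. The cause of these changes was not tested.

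Uncalled differences of some genes changed sign, among them those of Trem2 and Cd68, which were 0.24 and 0.21. Under median centring Irf8 lay at -0.0232, P2ry13 at -0.0028 and Ctsd at -0.0226, and under quantile normalization Irf8 at -0.0067. With the replicate block C1qb lay at 0.0156, C1qa at 0.0116, Trem2 at -0.15, P2ry13 at -0.0382, Fcgr3 at -0.0191 and Cd68 at -0.0936. With single arrays left out the ranges were -0.0413 to 0.0791 for Irf8, -0.35 to 0.0406 for Ly86, -0.0306 to 0.16 for P2ry13, -0.11 to 0.0202 for C1qb, -0.12 to 0.0405 for C1qa, -0.17 to 0.14 for Spi1, -0.0215 to 0.0454 for Ctsd, -0.0830 to 0.54 for Trem2 and -0.0702 to 0.12 for Aif1. Homeostatic minus activation, at -0.16, ranged from -0.22 to -0.11 in the same fits. It was -0.08 with the replicate block on II and III, -0.10 with the 60th percentile filter, -0.10 at a pseudocount of 64, -0.10 as a median over genes and -0.22 at a pseudocount of 1. The activation difference was 0.04 with that filter, 0.04 at a pseudocount of 64 and 0.05 under median centring, and the homeostatic one was -0.04 as a median over genes. The level over all 30 genes, at -0.03, was -0.06 under median centring, -0.04 without the dim filter, -0.08 with the block and -0.01 as a median over genes. Signal over background limits Cd163, Trem2, Tlr2 and other genes near the dim limit most.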
